A study of Arabidopsis thaliana with 12 samples.

Results

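Loss of phytochrome B was examined in the seedling transcriptome by setting 3 *phyB* libraries against 3 WT libraries, 6 of the 12 libraries sequenced. The libraries were chosen by genotype alone, and the comparison covered every gene. The *phyB* seedlings carried the *phyB-9* allele in the Col-0 ecotype of *Arabidopsis thaliana*, and WT was Col-0. The other 6 libraries came from *jazQ phyB* and *jazQ*, in which *JAZ10*, *JAZ9*, *JAZ4*, *JAZ3* and *JAZ1* are all disrupted by inserted T-DNA. These genes encode repressors of jasmonate signalling. The *jazQ phyB* and *jazQ* lines differ from each other in *phyB-9* and were used as a second comparison of *phyB-9* seedlings with seedlings that have the receptor. All seedlings were 8 days old and had been kept in constant light on solid medium that contained sucrose, with mutants and WT on the same plate. Each library pooled about 200 whole seedlings, roots included, so a level is an average over all organs, and fewer cells of a type and less RNA per cell cannot be told apart. A single allele stands for the loss of phytochrome B, and no library came from a complemented line.

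Phytochrome B is the main red-light receptor of light-grown plants. Red light converts it to its active form and far-red light reverts it, so that the receptor loses activity in the shade of other leaves. The active form enters the nucleus, binds the PHYTOCHROME INTERACTING FACTORS (PIFs), a group of basic helix-loop-helix (bHLH) transcription factors, and leads to their degradation. PIFs activate genes for auxin synthesis and cell elongation and hold back genes for chlorophyll synthesis and chloroplast development. Mutants without phytochrome B have long hypocotyls and petioles, pale leaves and early flowering, a set of traits known as the shade avoidance syndrome.

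Total counts ran from 12750074 to 17980367 in the *phyB* libraries and from 13350388 to 26347184 in the WT libraries, over 33602 genes. Levels are given as CPM (counts scaled to the same library size after TMM normalization, which sets the bulk of genes equal between libraries), and differences as log2 fold changes of *phyB* over WT with their standard error (SE). A gene was called higher or lower at a Benjamini-Hochberg adjusted p below 0.01 in edgeR's quasi-likelihood test over the 20957 genes that passed a filter on low counts. The first principal component, with 30.8% of the variance, separated *phyB* from the other 3 genotypes. Chloroplast transcripts took 0.273 to 0.348% of the counts in *phyB* and 0.553 to 0.988% in WT, and the 10 most abundant genes took 3.4 to 3.54% in *phyB* and 4.86 to 5.63% in WT.

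The *PHYB* transcript (AT2G18790) was still present in the mutant. It stood at 54.2, 57.4 and 54 CPM in the *phyB* libraries, against 83.9, 88 and 78.9 CPM in the WT libraries. All 3 *phyB* libraries lay below all 3 WT libraries (log2 fold change −0.60 with SE 0.06, adjusted p = 2.3e-05). The *jazQ phyB* libraries had 50.7 to 56 CPM and the *jazQ* libraries 74.5 to 83.7 CPM. *phyB-9* is a point mutation that introduces a stop codon, so the amount of transcript alone does not measure the loss of the protein. Some seed stocks of *phyB-9* are known to carry a second mutation in AT5G40270, which encodes a metal-dependent phosphohydrolase with an HD domain. AT5G40270 had 6.06, 5.71 and 4.91 CPM in *phyB*, against 11.4, 11.3 and 11.5 CPM in WT (log2 fold change −1.05 with SE 0.12, adjusted p = 4.04e-05). No *phyB* library reached the WT levels, while *jazQ phyB* had 11.5 to 12.4 CPM and *jazQ* 9.07 to 12.2 CPM. Whether these *phyB* seedlings carry that mutation was not tested.

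Of the genes tested, 2465 were called (11.8%), 986 higher in *phyB* (4.7%) and 1479 lower in *phyB* (7.06%). Without *phyB* replicate 1 there were 499 higher and 947 lower, without *phyB* replicate 2 there were 510 higher and 873 lower, and without WT replicate 2 there were 583 higher. The median log2 fold change was 0.48 among genes called higher and −0.55 among genes called lower, against 0.01 over all genes tested. At least 2-fold changes were seen in 144 of the higher and 248 of the lower genes, and at least 4-fold changes in 38 and 75. Libraries of *phyB* and WT did not overlap in 986 of the genes called higher and 1478 of those called lower. Over all genes tested 39.5% showed no overlap. In a called gene this property nearly always comes with the call and is no further evidence. The genes called lower included many abundant ones. They held 18.5 to 19% of all TPM (a level corrected for transcript length that has the same sum in every library) in the *phyB* libraries, against 26.5 to 28.9% in the WT libraries, and the genes called higher held 6.66 to 6.82% in *phyB* and 4.26 to 4.57% in WT. On the TPM scale the median of all genes lay at 0.14 above 0, and 2917 genes were called higher and 804 lower with limma-trend on log2(TPM + 1). Upper-quartile scaling gave 1218 higher and 1318 lower. The split between directions depended on the scaling. Calls and list medians below are against 0 on the scale named. They are to be read beside the median of all genes, 0.01 in the main fit and 0.14 on the log2(TPM + 1) scale. Counts of calls in a gene list are to be read beside the shares of all genes tested, 4.7% higher and 7.06% lower.

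**Figure D1:**
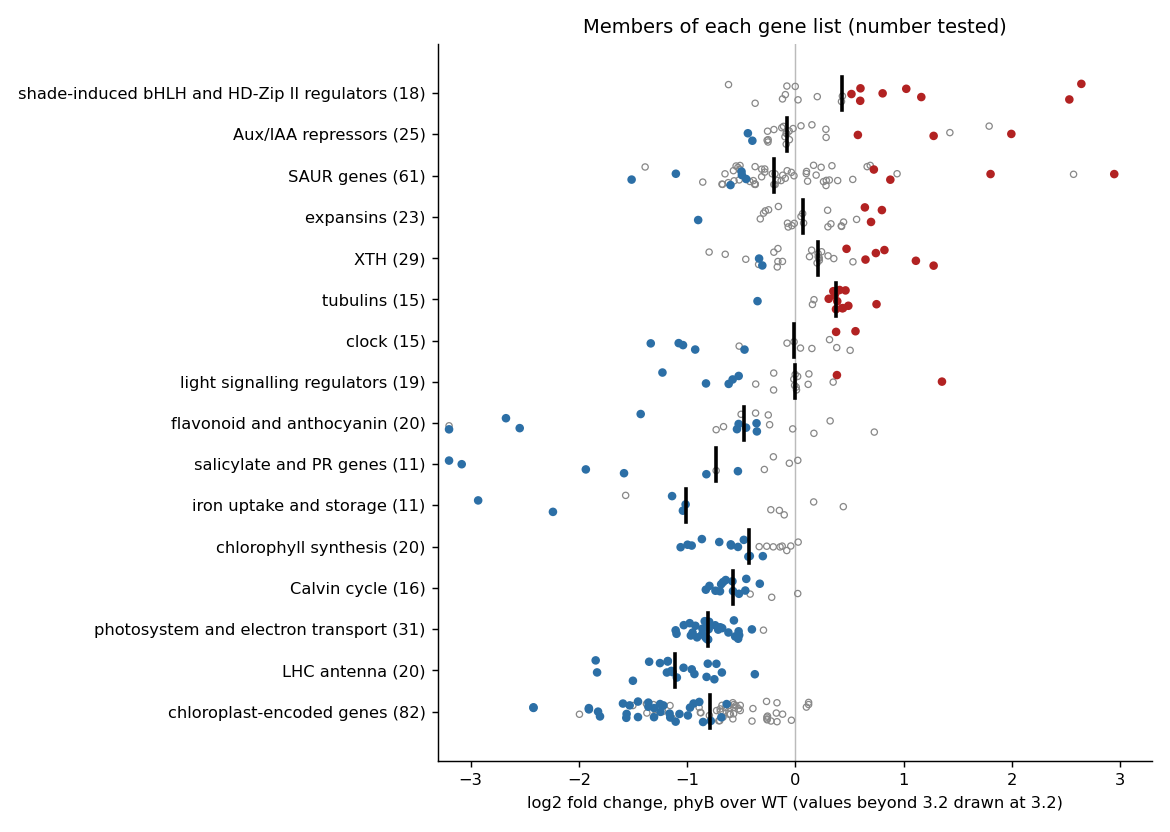
Log2 fold change of *phyB* over WT (horizontal axis) for the tested members of 16 gene lists, with the number tested in brackets; each point is a gene, filled red where called higher, filled blue where called lower and open where not called, black bars are list medians, and 3 points beyond 3.2 are drawn at 3.2. All 20 LHC antenna genes lie left of 0 with a median of −1.11, and 12 of the 15 tubulin genes are filled red.

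Of 14 photoreceptor genes, 2 were called higher and 4 lower, *PHYB* among them (median −0.10), where 4.7% of all genes tested were called higher and 7.06% lower. *PHYA*, the receptor of far-red light, which is degraded in red light, had 165, 176 and 183 CPM in *phyB* and 116, 116 and 123 CPM in WT. The groups did not overlap (log2 fold change 0.56 with SE 0.06, adjusted p = 3.57e-05). *PHYC* had 44.4 to 49 CPM in *phyB* and 47.9 to 50.4 CPM in WT and was not called (log2 fold change −0.08, adjusted p = 0.346), nor was *PHYD*, the closest relative of *PHYB*, at 16.5 to 16.8 CPM in *phyB* and 12.7 to 14.8 CPM in WT (log2 fold change 0.25, adjusted p = 0.0658). The count of 4 lower photoreceptor genes was 2 without WT replicate 1 and 1 without *phyB* replicate 1 or *phyB* replicate 2, and on the log2(TPM + 1) scale 4 genes were called higher and 1 lower.

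No transcript of the PIFs themselves was called higher in the mutant. Of the 7 tested, 0 were called higher and 3 lower (median −0.29). *PIF7* had 9.09, 9.86 and 8.64 CPM in *phyB*, against 16.7, 18.6 and 14.9 CPM in WT (log2 fold change −0.87 with SE 0.13, adjusted p = 0.000356), with no overlap. *PIF4* had 28.1, 29.4 and 28.5 CPM in *phyB* and 38.8, 43.9 and 49.4 CPM in WT (log2 fold change −0.61 with SE 0.15, adjusted p = 0.00829). *PIF5* had 77, 81.3 and 86.3 CPM in *phyB* and 98.1, 131 and 130 CPM in WT (log2 fold change −0.55 with SE 0.13, adjusted p = 0.00715). The calls of *PIF4* and *PIF5* were weak. Both were lost on the log2(TPM + 1) scale (adjusted p = 0.0289 for *PIF4* and 0.0302 for *PIF5*) and without any one of WT replicates 2 and 3, *phyB* replicates 1, 2 and 3 and *jazQ phyB* replicate 1, at an adjusted p of 0.0126 to 0.0328 for *PIF4* and 0.011 to 0.0352 for *PIF5*. *PIF4* also lost its call with upper-quartile scaling (0.0101) and without *jazQ* replicate 1 (0.0122).

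Among 19 regulators of light signalling, 2 were called higher and 5 lower (median −0.01). *FHL*, which carries phytochrome A into the nucleus, had 5.48, 3.93 and 4.96 CPM in *phyB*, against 1.71, 1.76 and 2.17 CPM in WT (log2 fold change 1.36 with SE 0.18, adjusted p = 0.000107). Every *phyB* library lay above every WT library. The B-box gene *BBX25* had 21.6, 21.3 and 20.3 CPM in *phyB*, against 52.9, 52.7 and 42.3 CPM in WT (log2 fold change −1.23 with SE 0.10, adjusted p = 2.36e-06). *SPA3*, a partner of the COP1 ubiquitin ligase, fell by 0.62 on the log2 scale, the bZIP factor gene *HYH* by 0.58 and *RUP2*, a repressor of ultraviolet-B signalling, by 0.83. *HY5*, the central activator of light-grown development and the close relative of *HYH*, had 30.5, 29.4 and 27 CPM in *phyB* and 32.9, 26.9 and 25.9 CPM in WT (log2 fold change 0.01, adjusted p = 0.969).

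Regulators that shade is known to induce rose at 8 members. Of 19 bHLH and homeodomain-leucine zipper (HD-Zip) genes in the list, 18 were tested, 8 were called higher and 0 lower, and the median was 0.43. *HFR1*, an atypical bHLH protein that binds PIFs and limits the shade response, had 51.5, 49.2 and 44.8 CPM in *phyB*, against 9.3, 8.97 and 6.7 CPM in WT. The lowest *phyB* library was far above the highest WT library (5.78-fold, log2 fold change 2.53 with SE 0.11, adjusted p = 7.27e-09). *PIL1*, a bHLH gene used as a rapid marker of shade, had 4.04, 3.49 and 2.61 CPM in *phyB* and 0.388, 0.92 and 0.411 CPM in WT (log2 fold change 2.64 with SE 0.32, adjusted p = 7.17e-05). *PAR1*, another bHLH protein that restrains elongation, averaged 17.1 ± 0.476 CPM in *phyB* and 8.43 ± 0.497 CPM in WT (SD, n = 3 each; log2 fold change 1.03 with SE 0.17, adjusted p = 0.000814). The HD-Zip gene *HB-2* averaged 18.5 ± 0.657 CPM in *phyB* and 12.3 ± 1.18 CPM in WT (SD, n = 3 each; log2 fold change 0.60 with SE 0.10, adjusted p = 0.000564). Groups did not overlap for any of these 4 genes, a property of 39.5% of all genes tested and of nearly all called genes. Without *phyB* replicate 3, 5 of the 18 were called.

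**Figure D2:**
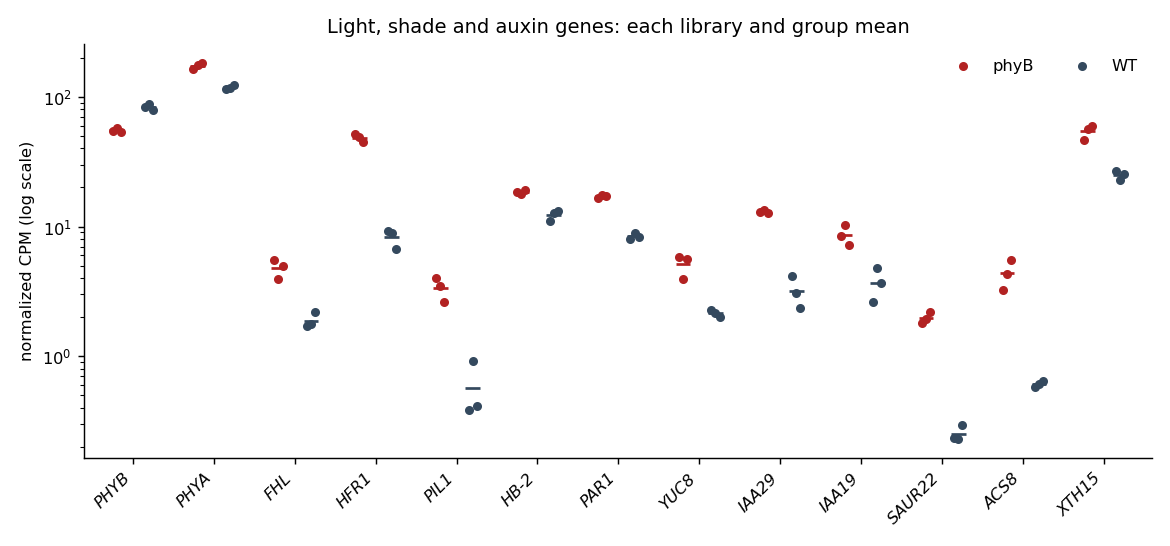
Normalized CPM (vertical axis, log scale) of 13 light, shade, auxin, ethylene and cell wall genes in the 3 *phyB* and 3 WT libraries; points are libraries and short lines are group means. *PHYB* is the one gene with *phyB* points below the WT points, and *HFR1* lies at 44.8 to 51.5 CPM in *phyB* and 6.7 to 9.3 CPM in WT.

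Genes that make and answer auxin, a growth hormone that shade is known to raise, were called at some members. *YUC8* encodes a flavin monooxygenase for the last step of auxin synthesis. It had 5.84, 3.93 and 5.6 CPM in *phyB*, against 2.29, 2.15 and 2 CPM in WT (log2 fold change 1.25 with SE 0.18, adjusted p = 0.000208), and was the one gene called higher among 9 tested of 14 in auxin synthesis (1 was called lower). Of 29 Aux/IAA genes, which encode repressors that auxin itself induces, 25 were tested, 3 called higher and 2 lower (median −0.08). Over all genes tested 4.7% were called higher and 7.06% lower. *IAA29* had 13.1, 13.5 and 12.8 CPM in *phyB* and 4.15, 3.07 and 2.35 CPM in WT (log2 fold change 2.00 with SE 0.16, adjusted p = 1.97e-06). *IAA19* had 8.51, 10.3 and 7.2 CPM in *phyB* and 2.64, 4.75 and 3.64 CPM in WT (log2 fold change 1.28 with SE 0.21, adjusted p = 0.000705). The *phyB* libraries of *YUC8*, *IAA29* and *IAA19* lay above the WT libraries without overlap. The 2 lower Aux/IAA calls were 1 without WT replicate 2 or *phyB* replicate 1 and 0 without *phyB* replicate 2 or on the log2(TPM + 1) scale.

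The SMALL AUXIN UP RNA (SAUR) family, whose proteins promote cell expansion, has 79 genes in the list. Of these, 61 were tested, 4 called higher and 6 lower, with a median of −0.20, shares near those of all genes tested (4.7% higher and 7.06% lower). *SAUR22* had 1.8, 1.93 and 2.19 CPM in *phyB* and 0.233, 0.23 and 0.294 CPM in WT (log2 fold change 2.95 with SE 0.31, adjusted p = 1.8e-05), and its neighbour *SAUR23* rose by 1.80. *SAUR6* had 24, 21.2 and 23.2 CPM in *phyB*, against 58, 47.7 and 40.7 CPM in WT (log2 fold change −1.10 with SE 0.17, adjusted p = 0.000437). *SAUR22* and *SAUR23* are near-identical copies, and RSEM divides reads that fit both, so their separate levels are uncertain. On the log2(TPM + 1) scale 4 members were called higher and 3 lower. *AUX1*, an auxin influx carrier, rose by 0.37 (adjusted p = 0.00136), the one call among 11 tested genes of auxin transport.

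The promoters of 3 of the genes that rose are shown because they hold short motifs to which PIFs are known to bind. The sequences are the 250 bases before the gene start in the RefSeq annotation of TAIR10.1, written 5′ to 3′ in the direction of the gene, and capitals mark the G-box (CACGTG, the same on both strands) and the PBE-box (CACATG or, on the other strand, CATGTG). They lie at chr5:437115-437364 (+ strand) for *FHL*, chr3:5263751-5264000 (+ strand) for *IAA19* and chr4:14192319-14192568 (+ strand) for *YUC8*.

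FHL: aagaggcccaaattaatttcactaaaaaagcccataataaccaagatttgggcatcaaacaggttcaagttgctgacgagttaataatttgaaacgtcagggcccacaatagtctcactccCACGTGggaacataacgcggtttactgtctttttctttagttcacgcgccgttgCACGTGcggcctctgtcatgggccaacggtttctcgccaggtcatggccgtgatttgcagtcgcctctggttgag
IAA19: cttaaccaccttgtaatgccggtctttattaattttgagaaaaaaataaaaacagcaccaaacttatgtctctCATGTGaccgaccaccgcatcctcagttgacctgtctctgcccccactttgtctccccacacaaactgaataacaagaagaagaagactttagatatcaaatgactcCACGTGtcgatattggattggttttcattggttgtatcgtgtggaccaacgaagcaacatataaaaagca
YUC8: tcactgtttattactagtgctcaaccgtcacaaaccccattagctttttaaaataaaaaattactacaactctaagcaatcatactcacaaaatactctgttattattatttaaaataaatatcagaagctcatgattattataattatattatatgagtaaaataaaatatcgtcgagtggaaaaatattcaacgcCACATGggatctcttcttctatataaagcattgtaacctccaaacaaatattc

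In *FHL* the G-boxes end 124 and 70 bases before the gene start. In *IAA19* a G-box ends 65 bases before it and a PBE-box 172 bases before it, and in *YUC8* a PBE-box ends 48 bases before it. A G-box was present in 7.32% of the 984 promoters of genes called higher for which a window was available, in 11.5% of 1445 promoters of genes called lower, in 7.3% of 20769 promoters of genes tested and in 5.39% of all 37897 annotated promoters. The PBE-box was present in 12.9% of promoters of genes called higher, 12.5% of genes called lower, 11.2% of genes tested and 10.9% of all annotated genes. A match is a run of letters and not a binding site. *HFR1*, *PIL1*, *IAA29* and *HB-2* hold neither run in this window.

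Other growth genes were called at some members, where 4.7% of all genes tested were called higher and 7.06% lower. *ACS8*, an isoform of the enzyme that makes the ethylene precursor, had 3.25, 4.3 and 5.5 CPM in *phyB* and 0.581, 0.613 and 0.647 CPM in WT (log2 fold change 2.83 with SE 0.27, adjusted p = 8.59e-06). Of 15 ethylene synthesis genes 11 were tested, 2 called higher and 1 lower (median −0.20). With a library left out, 1 or 2 of them were called higher and 0 or 1 lower. *CKX5*, a cytokinin oxidase that breaks down cytokinin, rose by 1.15 on the log2 scale (adjusted p = 1.78e-05). Of 17 genes of cytokinin response and turnover 15 were tested, 2 called higher and 1 lower (median −0.03). With a library left out, 1 or 2 of these were called higher. None of the 8 tested gibberellin oxidases of 17, none of the 8 DELLA and GID1 genes (repressors and receptors of gibberellin signalling) and none of the 9 tested cellulose synthases was called. On the log2(TPM + 1) scale 3 cellulose synthases and 1 of the DELLA and GID1 genes were called higher. Among 23 tested expansins, proteins that loosen the cell wall, 3 were called higher and 1 lower (median 0.07). *EXPA11* had 41.3, 43 and 43.7 CPM in *phyB*, against 26.2, 26.6 and 26.2 CPM in WT (log2 fold change 0.70 with SE 0.06, adjusted p = 2.81e-06), while *EXPA10* fell by 0.90 (adjusted p = 1.63e-05). Among 29 tested xyloglucan endotransglucosylase/hydrolases (XTHs), which cut and rejoin wall polymers, 6 were called higher and 2 lower (median 0.21). *XTH4* had 723, 756 and 806 CPM in *phyB* and 449, 443 and 472 CPM in WT (log2 fold change 0.74 with SE 0.06, adjusted p = 2.95e-06). *XTH15* had 46.5, 57 and 60 CPM in *phyB* and 26.9, 22.8 and 25.6 CPM in WT (log2 fold change 1.11 with SE 0.10, adjusted p = 7.18e-06). The 2 lower calls were 0 without WT replicate 2, *phyB* replicate 1 or 2, *jazQ phyB* replicate 1 or *jazQ* replicate 1 or 2, and the count of 6 higher was 4 without WT replicate 1, WT replicate 2 or *phyB* replicate 3.

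Transcripts of tubulins, the subunits of microtubules, rose nearly as a family. Of 15 genes, 12 were called higher and 1 lower, with a median of 0.38, and 14 had a positive log2 fold change. *TUB1* had 52.4, 52.4 and 46.9 CPM in *phyB*, against 29.4, 29.6 and 31.1 CPM in WT (log2 fold change 0.75 with SE 0.07, adjusted p = 7.18e-06). *TUB6* had 234, 233 and 242 CPM in *phyB* and 174, 174 and 175 CPM in WT (log2 fold change 0.44 with SE 0.06, adjusted p = 8.79e-05). For both genes the 3 libraries of a group lay close together and the groups apart. With any library left out, 11 or 12 tubulin genes were called higher, while the 1 lower call, *TUA1* (log2 fold change −0.35, adjusted p = 0.00944), was lost without any library other than WT replicate 1 or *jazQ phyB* replicate 2 (adjusted p up to 0.0517), with upper-quartile scaling (0.0133), on the log2(TPM + 1) scale (0.0543) and with only the 2 genotypes in the fit (0.0184). Among 34 tested cyclin and MCM genes, which drive cell division and DNA replication, 2 were called higher and 0 lower, and among 21 core histone genes 0 were called higher and 1 lower. The shares over all genes tested were 4.7% higher and 7.06% lower. The lower histone call was lost without *jazQ* replicate 1 or 2 or any one WT or *phyB* library, and the cyclin and MCM count was 1 higher without WT replicate 1 or 3, *jazQ phyB* replicate 1 or any one *phyB* library. On the log2(TPM + 1) scale 6 histone and 5 cyclin and MCM genes were called higher. Tubulin genes share long stretches of sequence, so reads may be exchanged between members.

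Genes for photosynthesis fell together. All 20 light-harvesting complex (LHC) antenna genes, whose proteins bind most of the chlorophyll, were called lower, with a median log2 fold change of −1.11, and all 20 were called lower with each library left out and under each other normalization. *LHCB1.3*, among the most abundant transcripts of the seedling, had 4135, 4016 and 4144 CPM in *phyB*, against 7169, 7515 and 8780 CPM in WT (log2 fold change −0.93 with SE 0.10, adjusted p = 1.7e-05). *LHCA4* had 1802, 1798 and 1858 CPM in *phyB* and 3686, 4180 and 4486 CPM in WT (log2 fold change −1.18 with SE 0.09, adjusted p = 2.13e-06). The *phyB* libraries lay close together, while the WT libraries were spread more widely. The changes ran from −0.37 for *LHCA5*, a minor antenna protein of photosystem I, to −1.85 for *LHCB1.4*, at 325, 283 and 310 CPM in *phyB* and 881, 1122 and 1295 CPM in WT. *LHCB2.4*, *LHCB3*, *LHCA1* and *LHCB5* fell by 1.83, 1.5, 1.19 and 1.13. The *LHCB1* copies are near-identical, so reads may be exchanged between them, but the whole family took 1.93 to 2% of all counts in *phyB* and 3.47 to 4.14% in WT.

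Transcripts for the photosystems and the electron transport chain fell by a smaller step. Of 31 nuclear genes for their subunits, 30 were called lower and 0 higher (median −0.81). *PSBS*, the sensor that switches the antenna to the loss of excess light as heat, had 545, 532 and 535 CPM in *phyB*, against 1139, 1154 and 1156 CPM in WT (log2 fold change −1.10 with SE 0.05, adjusted p = 3.08e-08). *PSBR*, a subunit of photosystem II, had 1921, 1817 and 1795 CPM in *phyB* and 2674, 2905 and 2916 CPM in WT (log2 fold change −0.62 with SE 0.08, adjusted p = 0.000162). Transcripts for carbon fixation in the Calvin cycle fell by less again, with 13 of 16 genes called lower, 0 higher and a median of −0.58. *RCA*, the activator of Rubisco, had 4353, 4086 and 4160 CPM in *phyB* and 6464, 6309 and 6903 CPM in WT (log2 fold change −0.64 with SE 0.07, adjusted p = 2.23e-05). *GAPA*, a subunit of the chloroplast glyceraldehyde-3-phosphate dehydrogenase, had 1372, 1370 and 1378 CPM in *phyB* and 2225, 2290 and 2359 CPM in WT (log2 fold change −0.74 with SE 0.06, adjusted p = 2.04e-06). Of the small subunits of Rubisco, *RBCS3B* fell by 0.79 and *RBCS2B* by 0.52 on the log2 scale. The call of *RBCS2B* was lost on the log2(TPM + 1) scale (adjusted p = 0.0202) and without *phyB* replicate 2 (0.0104). The medians of the 3 photosynthesis lists on the log2(TPM + 1) scale were −0.96, −0.66 and −0.43, in the same order, where the median of all genes was 0.14.

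**Figure D3:**
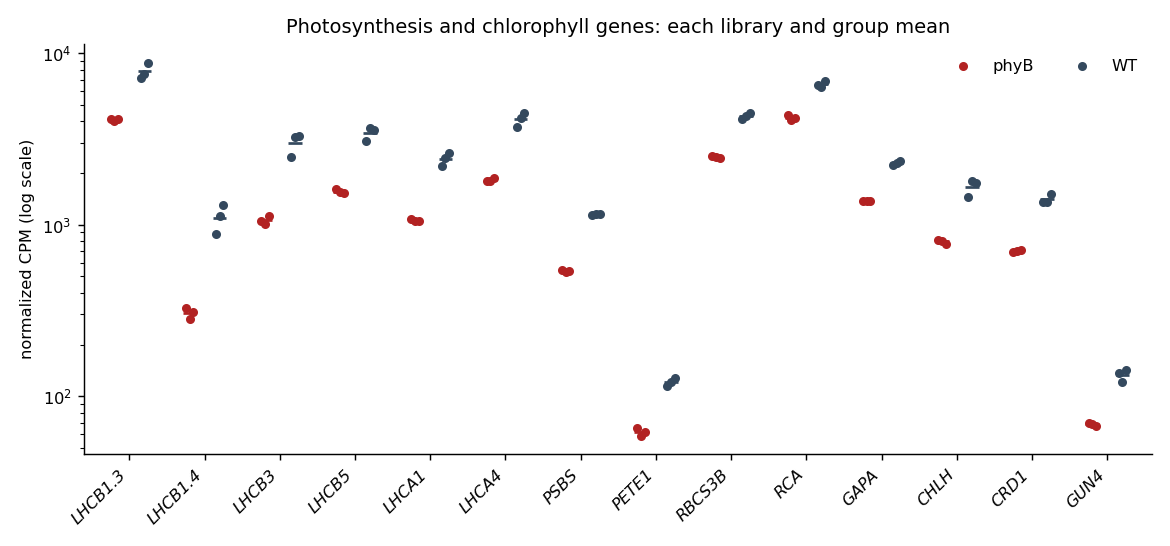
Normalized CPM (vertical axis, log scale) of 14 genes for antenna proteins, electron transport, carbon fixation and chlorophyll synthesis in the 3 *phyB* and 3 WT libraries; points are libraries and short lines are group means. In every gene drawn the 3 *phyB* points lie below the 3 WT points.

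Many genes of chlorophyll synthesis fell. Of 21 genes 20 were tested, 12 called lower and 0 higher (median −0.43). *CHLH*, a subunit of the magnesium chelatase at the entry to the chlorophyll branch, had 813, 806 and 774 CPM in *phyB*, against 1442, 1790 and 1759 CPM in WT (log2 fold change −1.06 with SE 0.11, adjusted p = 1.53e-05). *GUN4*, which stimulates that enzyme, had 69.7, 69 and 67.4 CPM in *phyB* and 136, 121 and 143 CPM in WT (log2 fold change −0.96 with SE 0.08, adjusted p = 2.04e-06). *CRD1*, a cyclase that closes the fifth ring of chlorophyll, had 694, 698 and 716 CPM in *phyB* and 1350, 1355 and 1499 CPM in WT (log2 fold change −1 with SE 0.06, adjusted p = 3.19e-07). All 3 genes were lower in each *phyB* library than in each WT library. *PORB*, a light-dependent protochlorophyllide reductase, had 257 to 275 CPM in *phyB* and 296 to 351 CPM in WT and was not called (log2 fold change −0.26, adjusted p = 0.0205). Of 10 regulators of chloroplast development, 4 were called lower and 0 higher. They included *SIG1* (log2 fold change −0.71, adjusted p = 0.000564) and *SIG5* (−0.54, adjusted p = 0.000419), sigma factors that direct the chloroplast RNA polymerase.

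Genes encoded in the chloroplast itself were also lower, but here the WT libraries stood apart from the other 3 genotypes. Of 133 genes 82 were tested, 31 called lower and 0 higher, with a median of −0.79. Their summed level was 2719, 2342 and 2926 TPM in *phyB*, against 5356, 5520 and 8189 TPM in WT. It was 3482 to 3666 TPM in *jazQ phyB* and 3059 to 3647 TPM in *jazQ*, so that WT was the highest genotype and *phyB* the lowest. *RBCL*, the large subunit of Rubisco, had 41.5, 37.5 and 49.5 CPM in *phyB* and 117, 109 and 163 CPM in WT (log2 fold change −1.59 with SE 0.14, adjusted p = 3.75e-06). *PSAA*, a core protein of photosystem I, had 11.9, 11.8 and 13.4 CPM in *phyB* and 36.7, 25 and 29.4 CPM in WT (log2 fold change −1.31 with SE 0.15, adjusted p = 3.75e-05). *RBCL* lay at 71.7 to 80.3 CPM in *jazQ phyB* and 66.6 to 78.3 CPM in *jazQ*, and no chloroplast-encoded gene was called between these genotypes. The nuclear 18S ribosomal RNA locus AT3G41768 moved with them, at 4308, 3926 and 4900 CPM in *phyB* and 6837, 7094 and 11498 CPM in WT (log2 fold change −0.95 with SE 0.16, adjusted p = 0.000683). The part of such residual ribosomal and organellar RNA in the chloroplast result was not tested. Without *phyB* replicate 2, 19 of the 82 genes were called lower.

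Genes of the circadian clock changed in a pattern in which the morning genes fell. Of 15 genes, 5 were called lower and 2 higher (median −0.01). *LHY* and *CCA1* are related MYB factors that peak at dawn and repress evening genes. *LHY* had 108, 113 and 118 CPM in *phyB*, against 283, 323 and 250 CPM in WT (log2 fold change −1.34 with SE 0.08, adjusted p = 2.86e-07). *CCA1* had 55.6, 60.6 and 63.7 CPM in *phyB* and 119, 144 and 118 CPM in WT (log2 fold change −1.08 with SE 0.09, adjusted p = 3.86e-06). Neither gene showed any overlap between the groups. *RVE8*, a MYB factor that activates evening genes, fell by 1.04 and its coactivator *LNK2* by 0.93. *TOC1*, the evening gene that represses *LHY* and *CCA1*, had 122, 136 and 141 CPM in *phyB* and 102, 99.9 and 106 CPM in WT (log2 fold change 0.38 with SE 0.06, adjusted p = 0.0009). *COR27*, a cold- and clock-regulated gene kept in the list of the cold regulon, had 28.1, 31.6 and 32.1 CPM in *phyB* and 13.7, 14.2 and 12.9 CPM in WT (log2 fold change 1.17 with SE 0.14, adjusted p = 6.46e-05). *PRR7*, a daytime repressor, had 74 to 81.1 CPM in *phyB* and 73.9 to 84.3 CPM in WT (log2 fold change −0.01, adjusted p = 0.93). The 5 lower calls were 5 or 6 with any library left out, while the 2 higher calls were 4 without WT replicate 1 and 1 without WT replicate 2 or 3 or *phyB* replicate 1 or 2. Seedlings were kept in continuous light, and the hour of harvest is not given in the sources used here.

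Of all lists, the clock genes had the largest share of members in which the change of *phyB* over WT differed from that of *jazQ phyB* over *jazQ*. Differences between the lines other than *phyB-9* and the *JAZ* insertions were not tested and cannot be told apart from the background. The interaction, the change of *jazQ phyB* over *jazQ* minus the change of *phyB* over WT, was called in 756 of the genes tested (3.61%) and in 10 of the 15 clock genes. The count over all genes was 423 without *phyB* replicate 1, 360 without *phyB* replicate 2, 469 without *phyB* replicate 3, 454 without WT replicate 2 and 359 without *jazQ phyB* replicate 1. *LHY* had 374, 360 and 369 CPM in *jazQ phyB* and 241, 227 and 243 CPM in *jazQ*, a rise of 0.63 on the log2 scale (adjusted p = 0.000164), so that it changed in opposite directions in the 2 backgrounds (adjusted p = 5.02e-07 for the interaction). *CCA1* was at 140 to 148 CPM in *jazQ phyB* and 100 to 126 CPM in *jazQ* (log2 fold change 0.34, adjusted p = 0.0225, not called), with an interaction at an adjusted p of 2.55e-05. *TOC1* had 65.9 to 71 CPM in *jazQ phyB* and 100 to 111 CPM in *jazQ* (log2 fold change −0.62, adjusted p = 5.09e-05). *COR27* had 4.3 to 7.93 CPM in *jazQ phyB* and 14.6 to 17.1 CPM in *jazQ* (log2 fold change −1.34, adjusted p = 0.00013). The fitted changes of *LHY*, *CCA1*, *TOC1* and *COR27* had opposite signs in the 2 backgrounds, that of *CCA1* without a call in the *jazQ* background.

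**Figure D4:**
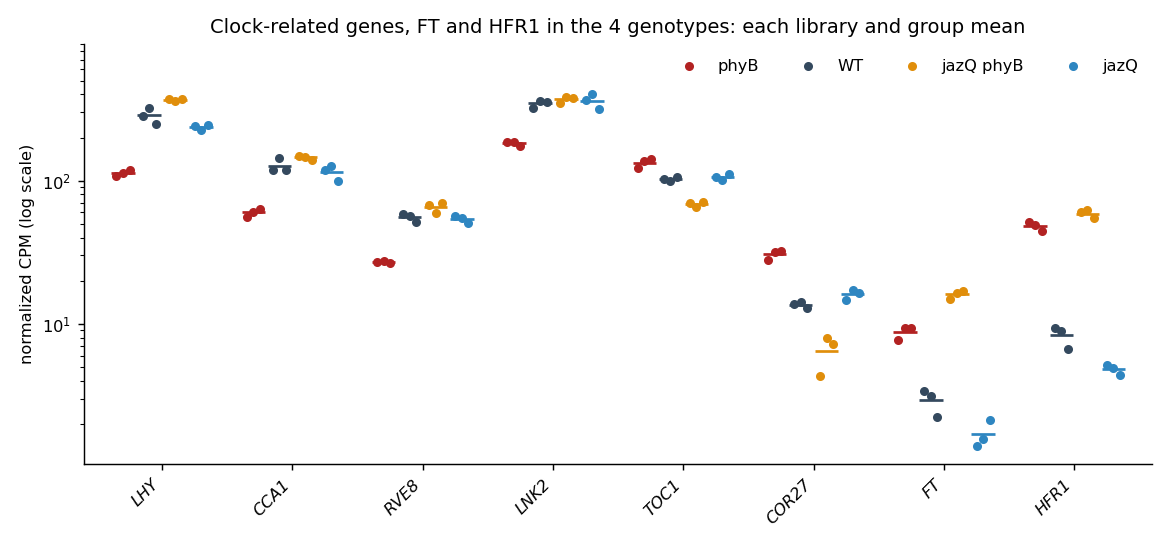
Normalized CPM (vertical axis, log scale) of 6 clock-related genes, *FT* and *HFR1* in *phyB*, WT, *jazQ phyB* and *jazQ* (3 libraries each); points are libraries and short lines are group means. *LHY* lies lowest in *phyB*, at 108 to 118 CPM, and highest in *jazQ phyB*, at 360 to 374 CPM, while *FT* and *HFR1* are higher in *phyB* than in WT and in *jazQ phyB* than in *jazQ*.

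Promoters of *CRD1*, *CCA1* and *LHY*, genes that fell in *phyB*, at chr3:21076255-21076504 (+ strand), chr2:19245341-19245590 (+ strand) and chr1:37872-38121 (- strand), are shown in the same way because each holds a G-box, in capitals.

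CRD1: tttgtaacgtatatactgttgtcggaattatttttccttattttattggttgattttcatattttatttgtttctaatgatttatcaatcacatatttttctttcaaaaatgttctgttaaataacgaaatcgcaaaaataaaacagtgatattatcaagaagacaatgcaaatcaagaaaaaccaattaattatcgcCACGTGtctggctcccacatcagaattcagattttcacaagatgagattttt
CCA1: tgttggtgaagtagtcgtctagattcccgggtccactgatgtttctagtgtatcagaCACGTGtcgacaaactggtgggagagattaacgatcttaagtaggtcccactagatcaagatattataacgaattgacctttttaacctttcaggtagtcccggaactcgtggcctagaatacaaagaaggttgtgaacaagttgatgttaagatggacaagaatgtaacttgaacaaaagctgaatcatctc
LHY: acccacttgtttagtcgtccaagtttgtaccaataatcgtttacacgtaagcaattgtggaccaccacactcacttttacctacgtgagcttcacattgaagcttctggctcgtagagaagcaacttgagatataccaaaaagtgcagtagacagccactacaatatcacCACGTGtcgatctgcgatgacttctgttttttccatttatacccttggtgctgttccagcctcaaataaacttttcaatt

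The G-box ends 47 bases before the gene start in *CRD1*, 188 bases before it in *CCA1* and 75 bases before it in *LHY*. G-boxes stood in 5 of 15 clock promoters, 4 of 20 LHC promoters, 6 of 31 photosystem promoters and 3 of 16 Calvin cycle promoters, but in 1 of 20 promoters of chlorophyll synthesis, that of *CRD1*, and in 0 of 10 promoters of chloroplast development regulators, against 7.3% of the promoters of all genes tested. Such shares were not particular to these lists. G-boxes also stood in 6 of 20 flavonoid and anthocyanin, 4 of 11 iron and 4 of 12 *JAZ* promoters, but in 1 of 61 SAUR and 0 of 29 XTH promoters.

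Among flowering genes *FT*, the mobile signal that starts flowering, rose. *FT* had 7.72, 9.42 and 9.34 CPM in *phyB*, against 3.37, 3.14 and 2.23 CPM in WT (log2 fold change 1.58 with SE 0.16, adjusted p = 1.63e-05), without overlap. It was the one gene called higher among 22 tested, and 2 were called lower, shares near those of all genes tested (4.7% higher and 7.06% lower). The lower count was 1 with each library left out in turn, except *phyB* replicate 3 and *jazQ phyB* replicate 1. *TOE1*, a repressor of *FT*, had 72.6, 68.5 and 69.3 CPM in *phyB* and 103, 99.9 and 98.6 CPM in WT (log2 fold change −0.52 with SE 0.06, adjusted p = 2.96e-05). In *jazQ phyB* *FT* reached 14.9 to 16.9 CPM, against 1.39 to 2.14 CPM in *jazQ* (log2 fold change 3.25, adjusted p = 1.05e-07), a larger rise than in *phyB* (adjusted p = 0.00109 for the interaction).

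Genes for the synthesis of salicylic acid and for the defence response to it fell at 6 members. Of 11 genes, 6 were called lower and 0 higher (median −0.73). *PR1*, the usual marker of this pathway, had 0, 0.0742 and 0.16 CPM in *phyB*, against 33.8, 11 and 10.8 CPM in WT (log2 fold change −7.66 with SE 1.31, adjusted p = 0.00092), which rests on 4 counts in all *phyB* libraries and 1198 in WT. *SARD1*, an activator of salicylate synthesis, had 3.03, 3.26 and 2.99 CPM in *phyB* and 11.1, 7.36 and 16.8 CPM in WT (log2 fold change −1.94 with SE 0.26, adjusted p = 0.000171). *ICS1*, the synthesis enzyme, fell by 0.82 (adjusted p = 0.00028). *PR2*, a glucanase gene, had 1.3, 1.48 and 0.587 CPM in *phyB* and 10.2, 6.28 and 10.6 CPM in WT (log2 fold change −3.08, adjusted p = 0.00313). Its call was lost without *phyB* replicate 1 (adjusted p = 0.0136), 2 (0.0124) or 3 (0.0218), and without any one of these 3 libraries 3 of the 11 genes were called. *PR5* was not called, at 4.26 to 5.19 CPM in *phyB* and 4.38 to 5.35 CPM in WT (log2 fold change −0.06, adjusted p = 0.841).

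Jasmonate genes were called lower at 6 members of 3 lists, where 7.06% of all genes tested were called lower. Of 13 tested synthesis genes 2 were called lower, of 12 tested *JAZ* genes 2 were lower, of 10 tested transcription factor and response genes 2 were lower, and none of these was called higher. Without *phyB* replicate 1 or 2 the synthesis count was 1 and the *JAZ* count 0, without WT replicate 2 the synthesis count was 1, and without WT replicate 1 the *JAZ* count was 1. The count of transcription factor and response genes was 1 without WT replicate 3, *phyB* replicate 2 or *phyB* replicate 3. On the log2(TPM + 1) scale 1 synthesis gene and 1 *JAZ* gene were called higher, and each of the 3 lists had 1 lower call. Upper-quartile scaling also called 1 synthesis gene higher. *AOC2*, an allene oxide cyclase of jasmonate synthesis, had 91.8, 94.3 and 89.6 CPM in *phyB* and 170, 206 and 145 CPM in WT (log2 fold change −0.91 with SE 0.13, adjusted p = 0.000279). *JAM1*, a bHLH repressor of jasmonate responses, fell by 0.75 (adjusted p = 0.0012). *ST2A*, a sulfotransferase that inactivates hydroxylated jasmonate, showed one of the largest rises, with 37.1, 39.5 and 38.3 CPM in *phyB* and 5.7, 3.83 and 4.06 CPM in WT (log2 fold change 3.03 with SE 0.19, adjusted p = 3.38e-07). The 24 tested genes for aliphatic glucosinolates, sulfur-rich defence compounds, had 0 calls and a median of −0.11.

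Flavonoid and anthocyanin genes fell at 9 members, late enzymes that give pigment among them. Of 21 genes 20 were tested, 9 called lower and 0 higher (median −0.48). *DFR*, the reductase at the start of the anthocyanin branch, had 1.8, 1.78 and 1.01 CPM in *phyB*, against 7.29, 12 and 9.99 CPM in WT (log2 fold change −2.67 with SE 0.41, adjusted p = 0.000429). *LDOX*, the next enzyme, had 1.8, 2.15 and 1.55 CPM in *phyB* and 8.37, 14.9 and 9.29 CPM in WT (log2 fold change −2.55 with SE 0.34, adjusted p = 0.000147). *UGT79B1*, a glycosyltransferase of anthocyanins, had 0.0722, 0.0742 and 0.213 CPM in *phyB* and 1.32, 1.53 and 1.53 CPM in WT (log2 fold change −3.41 with SE 0.50, adjusted p = 0.000287). All 3 were several-fold lower in each *phyB* library. On the log2(TPM + 1) scale 5 of the 20 were called lower and 1 higher. *CHS*, chalcone synthase at the entry to the whole pathway, had 260, 212 and 216 CPM in *phyB* and 349, 312 and 326 CPM in WT (log2 fold change −0.52 with SE 0.08, adjusted p = 0.000509).

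Iron uptake genes fell at 5 members, with wide spread between libraries. Of 11 genes 5 were called lower and 0 higher (median −1.01). *FRO2*, the root reductase that makes iron soluble, had 11.9, 18.8 and 10 CPM in *phyB* and 25.7, 23 and 32.3 CPM in WT (log2 fold change −1.01 with SE 0.18, adjusted p = 0.00101). *IRT1*, the iron transporter, had 23.7, 39 and 22.5 CPM in *phyB* and 58.5, 48.6 and 66.2 CPM in WT (log2 fold change −1.04 with SE 0.19, adjusted p = 0.00158). *BHLH100*, a bHLH factor of the iron response, had 7.86, 12.8 and 8.91 CPM in *phyB* and 114, 59.8 and 48.1 CPM in WT (log2 fold change −2.93 with SE 0.56, adjusted p = 0.00197). *FIT*, the partner of *BHLH100*, was not called, at 15.1 to 18.1 CPM in *phyB* and 14.2 to 15.8 CPM in WT (log2 fold change 0.17, adjusted p = 0.305). The calls of *IRT1* and *BHLH100* were lost without *phyB* replicate 1 (adjusted p = 0.0115 and 0.0134) and without *phyB* replicate 3 (0.0107 and 0.0128). The count of 5 was 1 without either of these libraries and 3 without WT replicate 1, WT replicate 2, *phyB* replicate 2, *jazQ phyB* replicate 2 or *jazQ* replicate 1. On the log2(TPM + 1) scale 3 were called lower and 1 higher.

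The 15 largest rises among called genes without overlap were of several kinds. A first kind was seed transcripts. The seed storage protein genes *CRA1* and *CRU3* had 31.5, 14.8 and 3.63 CPM and 28.7, 13.7 and 3.2 CPM in *phyB* replicates 1, 2 and 3. In WT *CRA1* had 0.155, 0.843 and 0.529 CPM, and *CRU3* had 0, 0.46 and 0 CPM (log2 fold change 5.20 with SE 0.75, adjusted p = 0.000247 for *CRA1*, and 7.01, SE 1.02, adjusted p = 0.000464 for *CRU3*). The oil-body gene *OLEO2*, the late embryogenesis gene *M17*, the cupin gene AT2G28490 and the glycine-rich protein gene AT5G35660 had the same order among the *phyB* libraries, with replicate 1 highest and replicate 3 lowest. *OLEO2* had 3.75, 2.15 and 0.8 CPM in *phyB* and 0.0775 to 0.307 CPM in WT, and AT5G35660 had 16.3, 8.75 and 2.08 CPM in *phyB* and 0.0388 to 0.153 CPM in WT. The *phyB* libraries thus differed widely among themselves, and ungerminated seed in these pools was not tested. Of 13 seed storage and maturation markers 4 were tested and 3 of these called higher. The filter on low counts can keep a gene through the *phyB* libraries alone, so this count cannot be read as a share. The summed level of the 13 was 61.9, 30.8 and 8.51 TPM in *phyB*, 2.95 to 4.72 TPM in WT, 2.75 to 3.06 TPM in *jazQ phyB* and 3.15 to 3.82 TPM in *jazQ*. The call of *M17* (log2 fold change 3.1) was lost without WT replicate 1 (adjusted p = 0.0104) or *phyB* replicate 1 (0.012), and that of AT2G28490 (4.06) without these (0.0144 and 0.0119), without WT replicate 3 (0.0108) and with only the 2 genotypes in the fit (0.0103).

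A second kind was transposon-derived or uncharacterized loci that were high in all 3 *phyB* libraries. AT3G01345, an uncharacterized protein gene, had 24.7, 30 and 38.4 CPM in *phyB* and 0.194, 0.0766 and 0 CPM in WT (log2 fold change 8.09 with SE 0.33, adjusted p = 7.27e-09), and 0.0588 to 0.121 CPM in *jazQ phyB*. The non-coding retrotransposon *SADHU3-2* had 11.8, 10.5 and 13.8 CPM in *phyB* and 0.93, 0.613 and 0.764 CPM in WT (log2 fold change 3.90 with SE 0.19, adjusted p = 3.15e-08). AT2G01008 had 37.1, 44.9 and 47.6 CPM in *phyB* and 5.27, 4.22 and 3.82 CPM in WT (log2 fold change 3.26 with SE 0.16, adjusted p = 3.08e-08). These *phyB* libraries lay close together, unlike those of the seed genes. The copia retrotransposon *RE2* rested on 57 counts in *phyB* and 3 in WT, 23-fold with a 95% counting interval of 7.49 to 115, and AT5G41660 on 53 counts and 1 count, 64.2-fold with an interval of 11 to 2585. *MRD1*, AT3G33528 and AT1G03106 rose by 5.31, 3.61 and 3.42 on the log2 scale. In *jazQ phyB*, *SADHU3-2* and AT2G01008 lay at 3.11 to 4.41 and 0.823 to 1.89 CPM, and neither was called against *jazQ* (adjusted p = 0.2 and 0.212).

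The 15 largest falls included the anthocyanin gene *UGT79B1* and *PR1*. *SAG13*, a senescence gene, had 0.505, 0.148 and 0.107 CPM in *phyB*, against 10, 5.75 and 6.58 CPM in WT (log2 fold change −4.95 with SE 0.86, adjusted p = 0.00107). *WAK3*, a wall-associated kinase, fell by 3.73, *PCR1*, a cadmium resistance gene, by 5.17 and the pseudogene AT1G21525 by 3.6. AT3G48640, an uncharacterized protein gene, had 0.0722, 0.148 and 0.0533 CPM in *phyB* and 4.26, 3.53 and 3.06 CPM in WT (log2 fold change −5.28 with SE 0.38, adjusted p = 1.22e-06). AT3G48640 and *UGT79B1* also rested on few reads in *phyB*, and AT3G48640 was below the CPM of 3 counts in each *phyB* library. In 4 others *phyB* had no more than 3 counts over its libraries together. They were AT3G28510 (1 count in *phyB* and 93 in WT, 76.7-fold lower with a 95% counting interval of 13.4 to 3063), AT1G33950 (1 and 77, 63.5-fold, 11.1 to 2541), *AOX1D*, an alternative oxidase (2 and 125, 51.6-fold, 14 to 431), and AT1G43590 (1 and 62, 51.2-fold, 8.85 to 2053). *ELI3-2*, an alcohol dehydrogenase gene, fell by 4.98, the methyltransferase gene *FAMT* by 3.77 and AT1G26390, a berberine bridge enzyme-like gene, by 3.52. The calls of *ELI3-2* and AT1G26390 were lost without WT replicate 1 (adjusted p = 0.0155 and 0.0173), *phyB* replicate 1 (0.0214 and 0.014), 2 (0.0194 and 0.0229) or 3 (0.0178 and 0.0272). Those of AT1G33950 (0.0115 and 0.014) were lost without *phyB* replicate 1 or 3, and that of *FAMT* (0.0101) without *phyB* replicate 1. The cyclophilin gene AT3G55920 had 1.23, 0.89 and 1.81 CPM in *phyB* and 17.5, 14.7 and 15.2 CPM in WT (log2 fold change −3.54 with SE 0.17, adjusted p = 2.27e-08), while *jazQ phyB* averaged 16.6 ± 1.42 CPM and *jazQ* 15.7 ± 0.418 CPM (SD, n = 3 each).

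**Figure D5:**
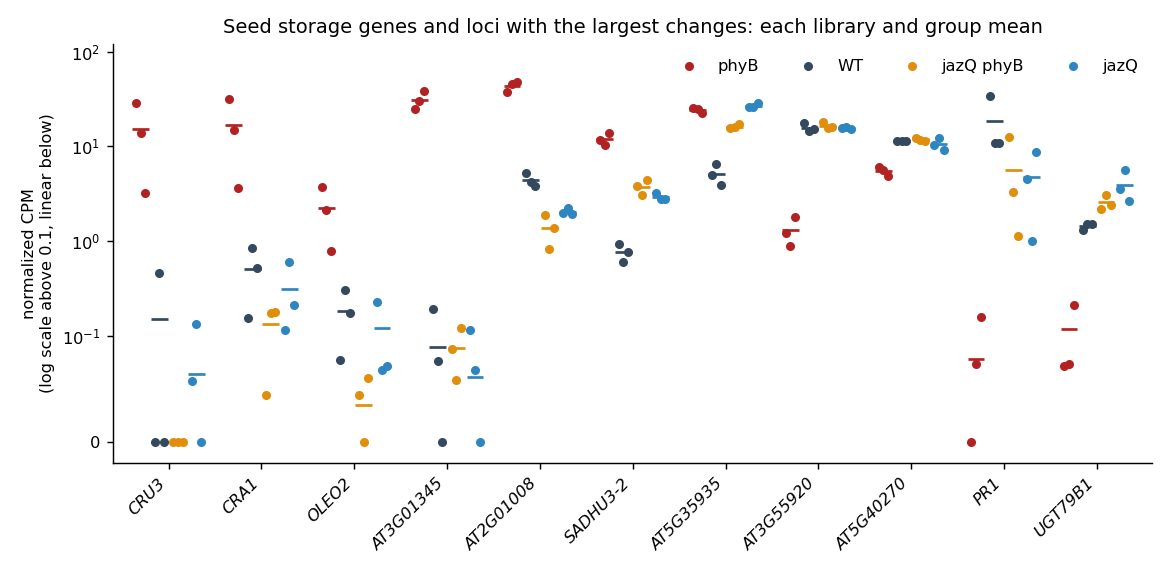
Normalized CPM (vertical axis, log scale above 0.1 and linear below) of seed storage genes, transposon-derived or uncharacterized loci and genes with a large fall, plotted for *phyB*, WT, *jazQ phyB* and *jazQ* (3 libraries each); points are libraries and short lines are group means. The *phyB* points of *CRA1* spread from 3.63 to 31.5 CPM, those of AT2G01008 lie together at 37.1 to 47.6 CPM, and AT3G55920 is low in *phyB* alone, at 0.89 to 1.81 CPM.

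The 10 most abundant called genes by TPM were 8 photosynthesis genes (*LHCB1.3*, *LHCB1.5*, *LHCA4*, *LHCB5*, *RBCS3B*, *RBCS2B*, *PSBR* and *RCA*), the 18S ribosomal RNA locus and *GRP3S*. *GRP3S*, a glycine-rich protein gene, was the one that rose, with 1618, 1559 and 1626 CPM in *phyB* and 1229, 1093 and 1057 CPM in WT (log2 fold change 0.51 with SE 0.08, adjusted p = 0.000728).

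The comparison of *jazQ phyB* with *jazQ* gave a second view of *phyB-9* in libraries that share none with *phyB* and WT. It called 1422 genes (6.79%), 552 higher in *jazQ phyB* (2.63%) and 870 lower in *jazQ phyB* (4.15%). It called 671 genes without *jazQ phyB* replicate 1, 839 without *jazQ phyB* replicate 2, 643 without *jazQ* replicate 1 and 940 without *jazQ* replicate 3. Of the 2465 genes called in *phyB*, 1815 (73.6%) had the same direction there, against 59.7% of all genes tested. Called in both with the same direction were 476 genes, 19.3% of the *phyB* calls and 33.5% of the *jazQ phyB* calls. Of the genes called higher in *phyB*, 160 were called higher and 46 lower in *jazQ phyB* against *jazQ*, and of those called lower, 316 were called lower and 19 higher. The shade regulators had 9 of 18 called higher in *jazQ phyB* and 0 lower (median 0.69), and *HFR1* rose more than in *phyB*, with 60.1, 61.9 and 54.4 CPM in *jazQ phyB* and 5.15, 4.94 and 4.36 CPM in *jazQ* (log2 fold change 3.6, interaction adjusted p = 0.00125). Of the LHC antenna genes 13 of 20 were called lower in *jazQ phyB* (median −0.64), and of the chlorophyll synthesis genes 15 of 20 (median −0.39). Of the photosystem and electron transport genes 19 of 31 were lower there (median −0.39), but of the Calvin cycle genes 5 of 16 (median −0.20). Chloroplast development regulators had 3 of 10 lower (median 0.00), and flavonoid and anthocyanin genes 2 of 20 lower and 1 higher (median −0.22). The tubulins had 1 of 15 called higher there (median 0.01), the salicylate genes 0 of 11 called and the iron genes 0 of 11. The 5 genes with the smallest adjusted p in the interaction were AT3G55920, the pseudogene AT5G35935, *LHY*, AT2G33830 and *RIBA2*. AT5G35935 had 25.3, 24.7 and 22.4 CPM in *phyB* and 5, 6.59 and 3.88 CPM in WT, and 15.5 to 17.1 CPM in *jazQ phyB* and 25.8 to 28.8 CPM in *jazQ*, so that WT was the low genotype. AT2G33830, a dormancy- and auxin-associated gene, rose by 0.81 in *phyB* and fell by 1.18 in *jazQ phyB* on the log2 scale, and *RIBA2*, a riboflavin synthesis gene, rose by 0.60 and fell by 0.61.

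Markers of organs and cell types were counted against the 11.8% of all genes tested that were called. Of 15 root hair markers 1 was called higher, of 9 root endodermis markers 2 higher, of 6 tested root tip markers 0, and of 3 tested shoot meristem markers 1 higher, and none of these was called lower. The summed endodermis level was 134 to 143 TPM in *phyB* and 89.1 to 92.9 TPM in WT, and the root hair sum was 137 to 178 TPM in *phyB* and 111 to 165 TPM in WT. Of 7 guard cell markers 2 were called lower, among them *FAMA*, a bHLH gene of guard cell fate, with 14.4, 15.9 and 15.8 CPM in *phyB* and 25.3, 25.5 and 24.8 CPM in WT (log2 fold change −0.71 with SE 0.08, adjusted p = 2.9e-05). Without WT replicate 1 or 2 or any one *phyB* library, 1 guard cell marker was called, and 0 or 1 endodermis marker was called without any one WT or *phyB* library. The guard cell sum was 69.6 to 72.8 TPM in *phyB* and 77.5 to 88.8 TPM in WT. None of the root hair, endodermis, root tip or guard cell markers was at 0 in either group, and 3 of 10 flower markers were at 0 in each group. Of the 2 flower markers tested 1 was called higher, *SEP3*, a MADS-box gene of flower organs, with 16.2, 20.1 and 23.2 CPM in *phyB* and 11.9, 12.3 and 13.4 CPM in WT (log2 fold change 0.67 with SE 0.14, adjusted p = 0.00326). The summed flower marker level was 26.5 to 36.4 TPM in *phyB* and no higher than 19.6 TPM in any WT library. The *SEP3* call was lost without WT replicate 1 or 2 or *phyB* replicate 2 or 3, and the root hair call without WT replicate 1 or *phyB* replicate 2 or 3. The part of a shift between root and shoot in the lower photosynthesis levels was not tested.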

How the data were processed

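RNA was sequenced from 12 pools of about 200 seedlings, 3 for each of 4 genotypes. The authors filtered 50 bp single-end reads and assigned them to TAIR10 gene models with RSEM 1.2.11, which divides reads shared between similar genes, and strand was not stated to be used. They deposited expected counts per gene, all whole in the file, and TPM per gene, scaled by transcript length to the same sum in each library. Replicates were separate libraries of separate seedling pools, and whether the pools were grown at separate times is not given in the sources used here.

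From the expected counts, edgeR 4.0.16 in R 4.3.3 was run with TMM normalization, filterByExpr at a minimum count of 10 (20957 of 33602 genes kept) and the quasi-likelihood test, with all 4 genotypes in 1 fit and a Benjamini-Hochberg adjusted p below 0.01. The contrasts were *phyB* against WT, then *jazQ phyB* against *jazQ*, and the difference between these (interaction). All adjusted p-values in the text are from edgeR unless limma 3.58.1 (limma-trend on log2(TPM + 1)) is named. A count of 3 corresponds to 0.114 to 0.235 CPM, depending on library depth, and intervals of count ratios cover counting error only. The fit was tested on simulated data. Alternatives were DESeq2 1.42.0, upper-quartile scaling, other filters, only the groups compared, TPM with a pseudocount of 1 or 0.1, a replicate block, other thresholds and each library left out.

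Genes named are *PHYB* and AT5G40270, the 15 largest rises and falls among called genes (at least 1 CPM in the higher group, no overlap), up to 5 called members of each list in each direction by adjusted p, the 5 smallest adjusted p of the interaction and the 10 most abundant called genes. Other list members, such as *LHCB1.4*, *RBCL* or *PORB*, are given as values for their roles. The members and lists were chosen with earlier results of these data known. Symbols and promoters came from RefSeq TAIR10.1, which names 32835 of the identifiers.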

Additional observations from a re-analysis of the deposited data

Results flagged for a closer look

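For 46 of the genes named, the change of *phyB* over WT differed from that of *jazQ phyB* over *jazQ* in the interaction test (edgeR, adjusted p from 5.02e-07 to 0.00971). Values are log2 differences, the *phyB* change minus the *jazQ phyB* change, so that a negative one means a lower value of the change in *phyB*.

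Among light and clock regulators the difference was 0.47 for *PHYA*, −1.27 for *BBX25*, −0.65 for *SPA3*, −0.77 for *HYH*, −1.07 for *HFR1*, −1.97 for *LHY*, −1.42 for *CCA1*, −1.32 for *RVE8*, −0.96 for *LNK2*, 1.00 for *TOC1*, 0.55 for *PRR7* and 2.51 for *COR27*. In flowering, auxin, cell wall and jasmonate genes it was −1.67 for *FT*, −0.46 for *TOE1*, −1.13 for *IAA29*, −0.74 for *EXPA10* and 1.54 for *ST2A*. For photosynthesis, chlorophyll and chloroplast genes it was −0.77 for *PSBS*, −0.62 for *RBCS2B*, −0.48 for *RCA*, −0.51 for *CRD1*, −0.83 for *CHLH*, −0.75 for *GUN4*, 0.55 for *PORB*, −0.75 for *SIG1*, −0.78 for *SIG5*, −1.61 for *RBCL* and −1.05 for *PSAA*. For defence and pigment genes it was −8.00 for *PR1*, −2.06 for *LDOX* and −2.79 for *UGT79B1*. For the other genes it was −1.22 for AT5G40270, 3.54 for *SADHU3-2*, 3.79 for AT2G01008, 2.98 for AT5G35935, −3.63 for AT3G55920, −5.77 for AT3G48640, 0.71 for *GRP3S*, −1.19 for AT3G41768, −7.97 for AT3G28510, −6.63 for AT1G33950, −5.58 for *PCR1*, −4.38 for AT1G21525, 1.22 for *RIBA2*, 1.99 for AT2G33830 and −0.57 for *FAMA*. *HFR1*, *IAA29* and *FT* rose in both backgrounds and by more in *jazQ phyB*. What separates the backgrounds was not tested.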

How the results depend on the processing

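The counts of calls depended on the threshold and on the libraries. At an adjusted p below 0.05, 4714 genes were called in *phyB* against WT (2163 higher and 2551 lower), 3065 in *jazQ phyB* against *jazQ* and 1980 in the interaction. Calls of at least 2-fold numbered 392 (144 higher and 248 lower), 196 and 233. With limma-trend on log2(TPM + 1) there were 3721 calls in *phyB* against WT, 2917 higher and 804 lower, and on log2(TPM + 0.1) 2838 higher and 802 lower. With only the groups compared in the fit, *jazQ phyB* against *jazQ* had 846 calls, and DESeq2 called 1137 genes in the interaction. With 1 library left out, the calls in *phyB* against WT ranged from 1383 to 2532, 499 to 1008 higher and 873 to 1524 lower, those in *jazQ phyB* against *jazQ* from 643 to 1568 and those in the interaction from 359 to 755. Without *phyB* replicate 1 there were 499 higher and 947 lower, without *phyB* replicate 2 there were 510 higher and 873 lower, and without WT replicate 2 there were 583 higher.

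The replicate block gave 2392 calls in *phyB* against WT (920 higher and 1472 lower). Same-numbered *phyB* and WT libraries did not deviate together (r = −0.09, −0.04 and −0.03 for replicates 1, 2 and 3), so the numbers were not treated as pairs. Of the genes named, *SEP3* not counted, the block ended the call of *TUA1* alone (adjusted p = 0.0136).

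Of 107 called genes named in the text, *SEP3* not counted, 102 kept their call under each other filter, scaling, tool, fit and looser threshold in which they were tested. Of the same 107 genes, 94 kept it with every library left out in turn. The call of *SEP3* was lost with some libraries left out, as given above. A 2-fold threshold was applied to counts only. The direction was reversed in 0 of 2362 fits of named genes. *PORB* was called with DESeq2 (adjusted p = 0.00684). The depth of 12750074 to 26347184 counts limits what can be said of genes below about 1 CPM, where a call rests on few reads. The causes of these differences between settings were not tested.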
